A study of Mus musculus with 18 samples.

Results

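Oocytes that had lost VPS34 were followed through meiotic maturation, from the germinal vesicle (GV) stage to metaphase II (MII). The comparison uses the 6 libraries of conditional knockout (cKO) GV and MII oocytes, 3 at each stage, of 18 samples in the series. They were chosen by stage and genotype in the labels, not by any measured value. The series concerns how VPS34 acts on RAB7, Retromer and mitophagy in oocytes. VPS34, the product of Pik3c3, is a lipid kinase that makes phosphatidylinositol 3-phosphate on endosomes and autophagosomes. Both stages came from 5-week-old Vps34 floxed/floxed, Zp3-Cre positive females, labelled ZcKO. The Zp3 promoter drives Cre in growing oocytes, so the surrounding follicle cells keep the floxed gene. GV oocytes were taken 46 h after PMSG, which drives follicle growth, and MII oocytes 14 h after hCG, which triggers ovulation. The 6 libraries of Vps34 floxed/floxed oocytes without Cre, from mice of that age and at the same stages, served as the control. Every library held 5 oocytes with added ERCC spike-in RNA and was made by Smart-seq2, which primes on poly(A). Counts thus stand for mRNA captured through its poly(A) tail.

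A fully grown oocyte is transcriptionally silent and lives on stored mRNA. High cAMP holds it in meiotic prophase. When that block is lifted, cyclin B-CDK1 and the MOS-MAPK pathway drive germinal vesicle breakdown, spindle assembly and arrest at metaphase II. In the same period a large share of the maternal mRNA is deadenylated and degraded, while dormant mRNAs that carry a cytoplasmic polyadenylation element in the 3′ UTR gain a longer tail and are translated.

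Gene totals of the cKO libraries overlapped between stages, at 3000704 to 3629487 counts at GV and 2609783 to 3303644 at MII. The 12 defining oocyte markers (among them Zp1, Zp2, Zp3, Gdf9, Mos and Kit) summed to 32620 to 37320 CPM (counts scaled to the gene total of the library) at GV and 17340 to 18000 CPM at MII. Reads on the 1 gene model that overlaps ribosomal RNA made up 1.17% to 11.1% of gene counts at GV, highest in cKO GV replicate 1, and 1.79% to 2.12% at MII. Of 14 blood and immune cell markers only C1qb and Cd68 were tested. C1qb fell (log2 change -3.69), and the list summed to 47.9 to 78.0 CPM at GV and 5.75 to 11.4 CPM at MII. Pik3c3 (chromosome 18, 30272747 to 30348126 in GRCm38), the deleted gene, had 1.55, 1.65 and 2.67 CPM at GV and 5.36, 2.42 and 3.21 CPM at MII in the cKO, and 35.5, 28.8 and 25.8 CPM at GV and 10.6, 21.4 and 17.1 CPM at MII in the control. All 6 cKO values lay below all 6 control values, but the matching of columns to genotypes was made with these counts in view, so they are no independent check. They cover the whole gene, whichever exons are floxed. Within the cKO the stages overlapped, and the higher MII level was at the edge of the threshold (log2 change 1.02, SE 0.44, edgeR adjusted p = 0.0496). The call was lost in 9 of the alternative analyses, with log2 changes of 0.69 to 1.06 there, the lowest without cKO MII replicate 1.

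The amount of captured mRNA was compared first, as gene counts per ERCC count. In cKO GV oocytes the ratio was 13.1, 7.43 and 6.29 in replicates 1 to 3, and in cKO MII oocytes it was 2.03, 2.21 and 1.51. Every MII library lay below every GV library. The mean log2 ratio fell by 2.17, a 4.49-fold difference (two-sided exact permutation test, p = 0.1, the smallest value 3 against 3 libraries allow). Without cKO GV replicate 1, the library with the highest ratio and the most ribosomal RNA reads, the fall was 3.62-fold. Control oocytes fell 2.95-fold over the same period (exact permutation p = 0.1). Whether the genotypes differed in this ratio was not tested. Fewer cells, less mRNA per oocyte and less efficient capture cannot be told apart, and the amount of ERCC RNA added to each library is not given in the sources used here.

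**Figure D1:**
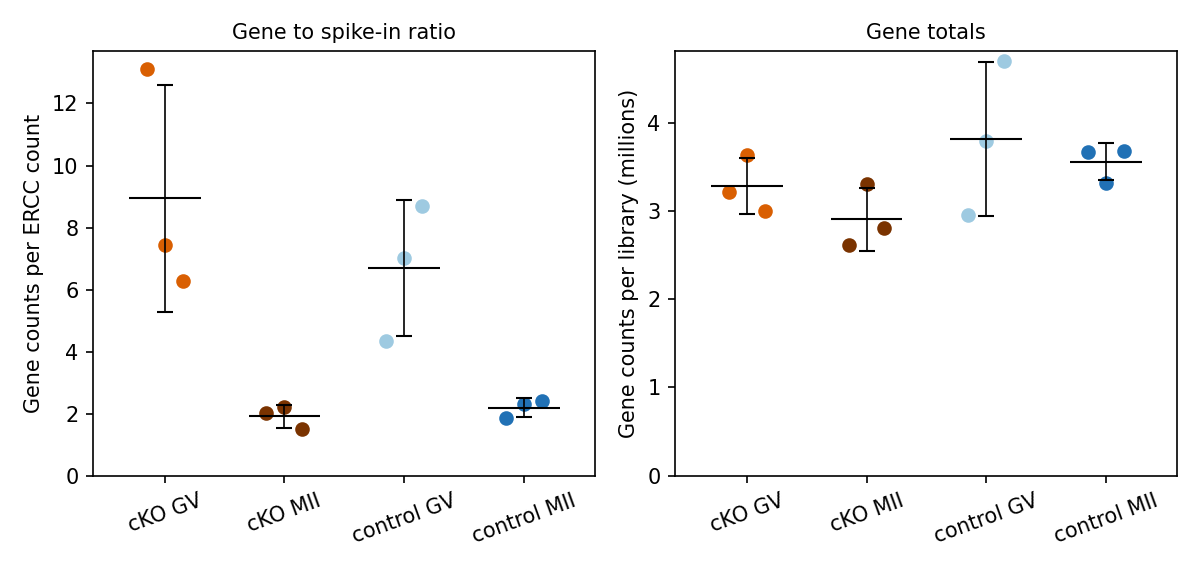
Gene counts per ERCC count (left) and the gene total (right) for each library of cKO and control oocytes at GV and MII. Points are libraries, horizontal lines are means and bars are SD (n = 3). The ratio lies between 1.51 and 2.21 in cKO MII libraries and between 6.29 and 13.1 in cKO GV libraries, while gene totals overlap.

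Gene by gene, the transcriptome was remodelled on a large scale. Relative to gene totals, 3423 of 11607 tested genes (29.5%) were higher and 3949 (34%) lower in cKO MII than in cKO GV oocytes, at an edgeR adjusted p under 0.05. In 27.6% of genes every MII library was above every GV library, and in 37.7% every MII library was below. The falls were the larger ones, with 2126 genes lower by at least 4-fold against 389 higher by as much. The median log2 change was -0.04, the 5th percentile -3.53 and the 95th percentile 1.78. These values are relative to gene totals adjusted by the trimmed mean of M-values (TMM). The TMM factor averaged 1.07 in cKO GV and 0.968 in cKO MII libraries. A call or log2 change described below as one in share is on this scale, not a plain fraction of the gene total. Scaling to gene totals alone, without TMM, moved the median to -0.18 and the calls to 2898 higher and 4211 lower. Scaled to ERCC counts, 10209 genes (88%) were lower and 93 (0.801%) higher, and the median log2 change was -2.37. With median-ratio size factors over the ERCC entries, in place of their sum, that median was -3.13.

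Of the 3423 genes that took a larger share of the pool at MII, 2197 were lower on the ERCC scale, 1133 had no call and 93 were higher. Of 6057 genes with a mean of at least 20 CPM in cKO GV oocytes, none was called higher on the ERCC scale, 5743 (94.8%) were called lower and 314 had no call. The 93 genes that were called higher were near the limit of detection at GV. Of these, 72 had a mean under 1 CPM in cKO GV oocytes, and the highest mean among them was 18.5 CPM. In 92 of the 93 the highest MII value was in cKO MII replicate 1, and without that library 48 genes were called higher. Among the 389 genes higher by at least 4-fold relative to gene totals, 268 had their highest MII value in that library.

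**Figure D2:**
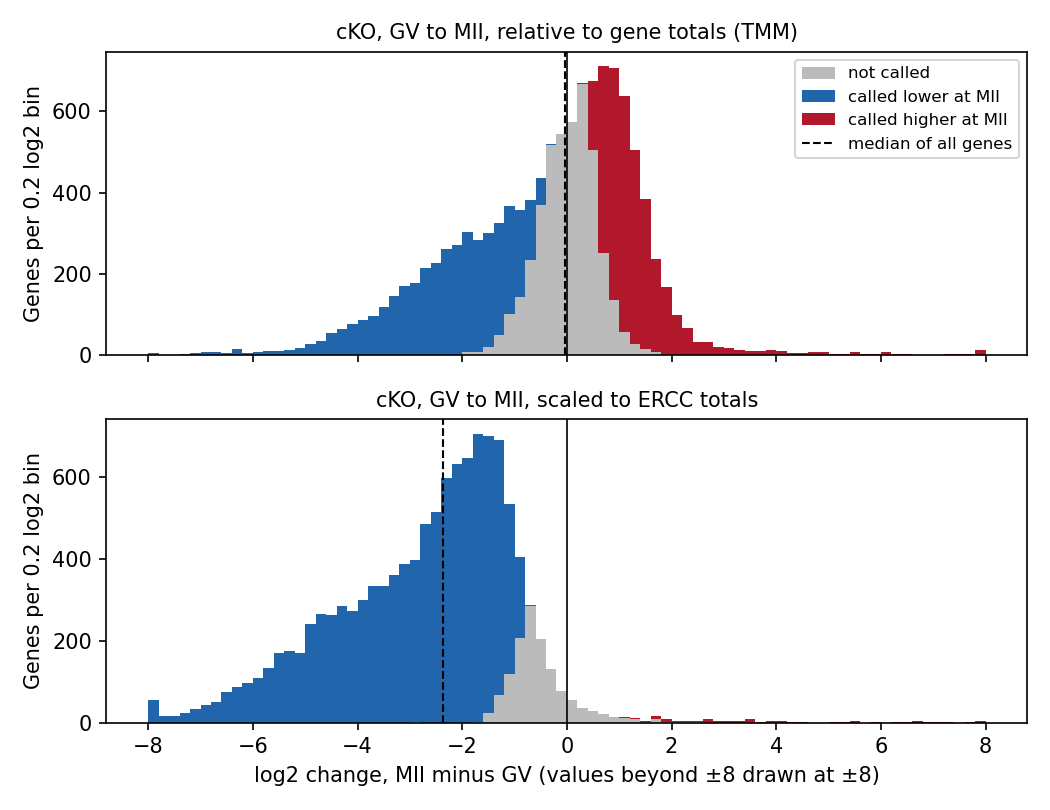
Histograms of the log2 change from GV to MII in cKO oocytes for 11607 genes, relative to gene totals (top) and scaled to ERCC totals (bottom); the x axis is the log2 change and the y axis the number of genes per bin of 0.2. Grey bars are genes with no call, blue bars genes called lower and red bars genes called higher. The dashed line, the median of all genes, moves from -0.04 to -2.37 between the scales.

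The gene lists that follow are given first by share of the pool, and a number in brackets after a gene is its log2 change relative to gene totals unless another scale is named. On the ERCC scale the median of every list but that of the cumulus and granulosa cell markers was below 0, from -4.94 to -0.80, whatever its sign relative to gene totals. With median-ratio size factors over the ERCC entries each of these medians was lower still, as was that of all genes. Each list's counts stand against the shares over all genes tested, 29.5% higher and 34% lower relative to gene totals and 88% lower when scaled to ERCC. Under TMM-free scaling, the medians of the MOS-MAPK list (-0.08) and of the RAB5 and RAB7 list (-0.06) also changed sign.

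Among the 19 tested genes of the cyclin B-CDK1 switch, 7 rose and 5 fell relative to gene totals, with a median log2 change of 0.26. Cyclin B1 and its kinase went opposite ways. Cdk1 (chromosome 10, 69335146 to 69352938), the catalytic subunit, had 159, 184 and 169 CPM at GV and 10.3, 3.03 and 3.21 CPM at MII. The stages were far apart in every library (log2 change -4.84, SE 0.32, edgeR adjusted p = 7.5e-10). Ccnb1, which encodes cyclin B1, had 768, 1129 and 1684 CPM at GV and 2200, 1991 and 1881 CPM at MII (log2 change 0.92, SE 0.21, edgeR adjusted p = 0.00101). All 3 MII libraries exceeded all 3 GV libraries, which differed among themselves. Scaled to ERCC, Ccnb1 was 2.48-fold lower at MII (log2 change -1.31, SE 0.39, edgeR adjusted p = 0.00106 on the ERCC scale), so its gain was a gain in share. Cks1b (1.49), a small subunit of the kinase complex, and Mastl (1.24), the Greatwall kinase, rose in share too. The phosphatase genes Cdc25b (-2.52), whose product activates CDK1, and Cdc25c (-1.69) fell, and so did the inhibitory kinase gene Wee1 (-1.52). Wee2, its oocyte-specific relative, had 505, 682 and 1076 CPM at GV and 816, 909 and 772 CPM at MII, with overlapping stages (log2 change 0.30, edgeR adjusted p = 0.286).

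In the MOS-MAPK pathway, which holds the metaphase II arrest, 4 of 12 tested genes rose and 2 fell, with a median of 0.06. Mapk3, which encodes the MAP kinase ERK1, had 330, 346 and 331 CPM at GV and 41.4, 46.9 and 19.2 CPM at MII, with no overlap (log2 change -3.09, SE 0.29, edgeR adjusted p = 4.22e-08). Mos, the oocyte kinase at the top of the pathway, had 834, 941 and 1076 CPM at GV and 861, 932 and 602 CPM at MII, and its stages overlapped (log2 change -0.11, edgeR adjusted p = 0.61). Fbxo43, which encodes EMI2, the inhibitor of the anaphase-promoting complex, had 118, 115 and 158 CPM at GV and 213, 257 and 208 CPM at MII and rose in share (log2 change 0.94, SE 0.19, edgeR adjusted p = 0.000374). Map2k2 and Map2k1, which encode the kinases MEK2 and MEK1, went opposite ways, with log2 changes of -1.96 and 1.01.

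Of 18 tested genes of the anaphase-promoting complex and its activators, 4 rose and 7 fell, with a median of -0.51. Fzr1 encodes CDH1, the activator that keeps cyclin B low during prophase arrest. It had 140, 91.2 and 94.6 CPM at GV and 8.05, 7.87 and 5.35 CPM at MII, the largest fall of the list (log2 change -3.80, SE 0.31, edgeR adjusted p = 8.06e-09). Cdc20, the activator used at metaphase, had 89.6, 104 and 190 CPM at GV and 158, 220 and 120 CPM at MII with overlapping stages (log2 change 0.53, edgeR adjusted p = 0.116). Among core subunits, Cdc27 had 175, 279 and 278 CPM at GV and 717, 697 and 685 CPM at MII and rose in share (log2 change 1.67, SE 0.21, edgeR adjusted p = 2.17e-06), as did Anapc10 (1.70) and Cdc26 (1.80). Anapc5 (-1.86) and Anapc2 (-1.51) fell.

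Of 30 genes for the spindle, its checkpoint and the polo and aurora kinases, 8 rose and 14 fell, with a median of -0.66. Tubulin genes were among the falls. Tubb4b, a beta-tubulin gene (chromosome 2, 25222160 to 25224702), had 1391, 1237 and 1512 CPM at GV and 36, 40 and 26.7 CPM at MII (log2 change -5.19, SE 0.23, edgeR adjusted p = 1.02e-11). All 3 MII libraries were far below all 3 GV libraries. Tuba1b (-3.12) and Tuba1c fell as well, although reads shared between near-identical tubulin genes make single values uncertain. Plk4, the kinase that controls centriole duplication and acentriolar spindle poles, moved the other way. It had 2.8, 7.16 and 18 CPM at GV and 145, 87.8 and 145 CPM at MII (log2 change 3.94, SE 0.76, edgeR adjusted p = 0.000892), with no overlap between stages. Its values per spike-in were 0.367, 0.532 and 1.13 counts per 10000 ERCC counts at GV and 2.95, 1.94 and 2.18 at MII. Plk4 was the only gene of the spindle list called higher on the ERCC scale (log2 change 1.76, SE 0.46, edgeR adjusted p = 0.000222 on the ERCC scale), a call that DESeq2 did not make. The checkpoint gene Mad2l1 (1.75) and the spindle assembly factor gene Tpx2 (1.31) rose in share. Plk1 (-1.20) and Aurka (-0.96), the main polo and aurora kinases of the meiotic spindle, fell.

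The cohesin list had no fall: 10 of 15 tested genes rose in share and 5 had no call, with a median of 1.10. The 14 members with a coding model had a median GC content of 43.0%. In the lowest of 5 equal groups of genes by GC content, 32.8% to 44.0%, 60.5% rose and 8.97% fell, with a median of 0.92. Cohesin holds sister chromatids together until anaphase. Wapl, which releases cohesin from chromosomes, had 245, 328 and 390 CPM at GV and 1218, 1000 and 1206 CPM at MII (log2 change 1.98, SE 0.22, edgeR adjusted p = 4.78e-07). The meiotic subunit gene Smc1b had 20.2, 22.9 and 25.3 CPM at GV and 56.7, 69.6 and 73.8 CPM at MII, and Sgo2a, which encodes the shugoshin that shields centromeric cohesin, had 27.7, 34.2 and 44.3 CPM at GV and 104, 104 and 92.7 CPM at MII. Both were separated between stages, with log2 changes of 1.70 and 1.65. Per spike-in, none of the 15 was higher and 11 were lower, or 7 without cKO GV replicate 1. Wapl (-0.32, edgeR adjusted p = 0.43), Smc1b and Sgo2a were not among the 11. Those 3 were called lower with DESeq2 and with median-ratio size factors over the ERCC entries, at log2 changes of -1.05 for Wapl, -1.38 to -1.39 for Smc1b and -1.35 to -1.36 for Sgo2a.

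In the cAMP pathway of prophase arrest, 5 of 12 tested genes rose in share and 1 fell, with a median of 0.63. The fall was that of Gja4, which encodes connexin 37, the oocyte's gap junction protein toward the cumulus cells. Gja4 had 678, 663 and 942 CPM at GV and 28, 30.3 and 16.4 CPM at MII (log2 change -4.79, SE 0.23, edgeR adjusted p = 2.15e-11). Pde3a, the phosphodiesterase that breaks cAMP down at resumption, had 193, 156 and 118 CPM at GV and 238, 245 and 283 CPM at MII and rose (log2 change 0.85, SE 0.20, edgeR adjusted p = 0.00125). Pde4d (1.87) and the regulatory subunit genes of protein kinase A, Prkar2a (1.11) and Prkar2b (1.54), rose as well. Gpr3, the receptor that keeps cAMP high, was not called (log2 change -0.53).

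**Figure D3:**
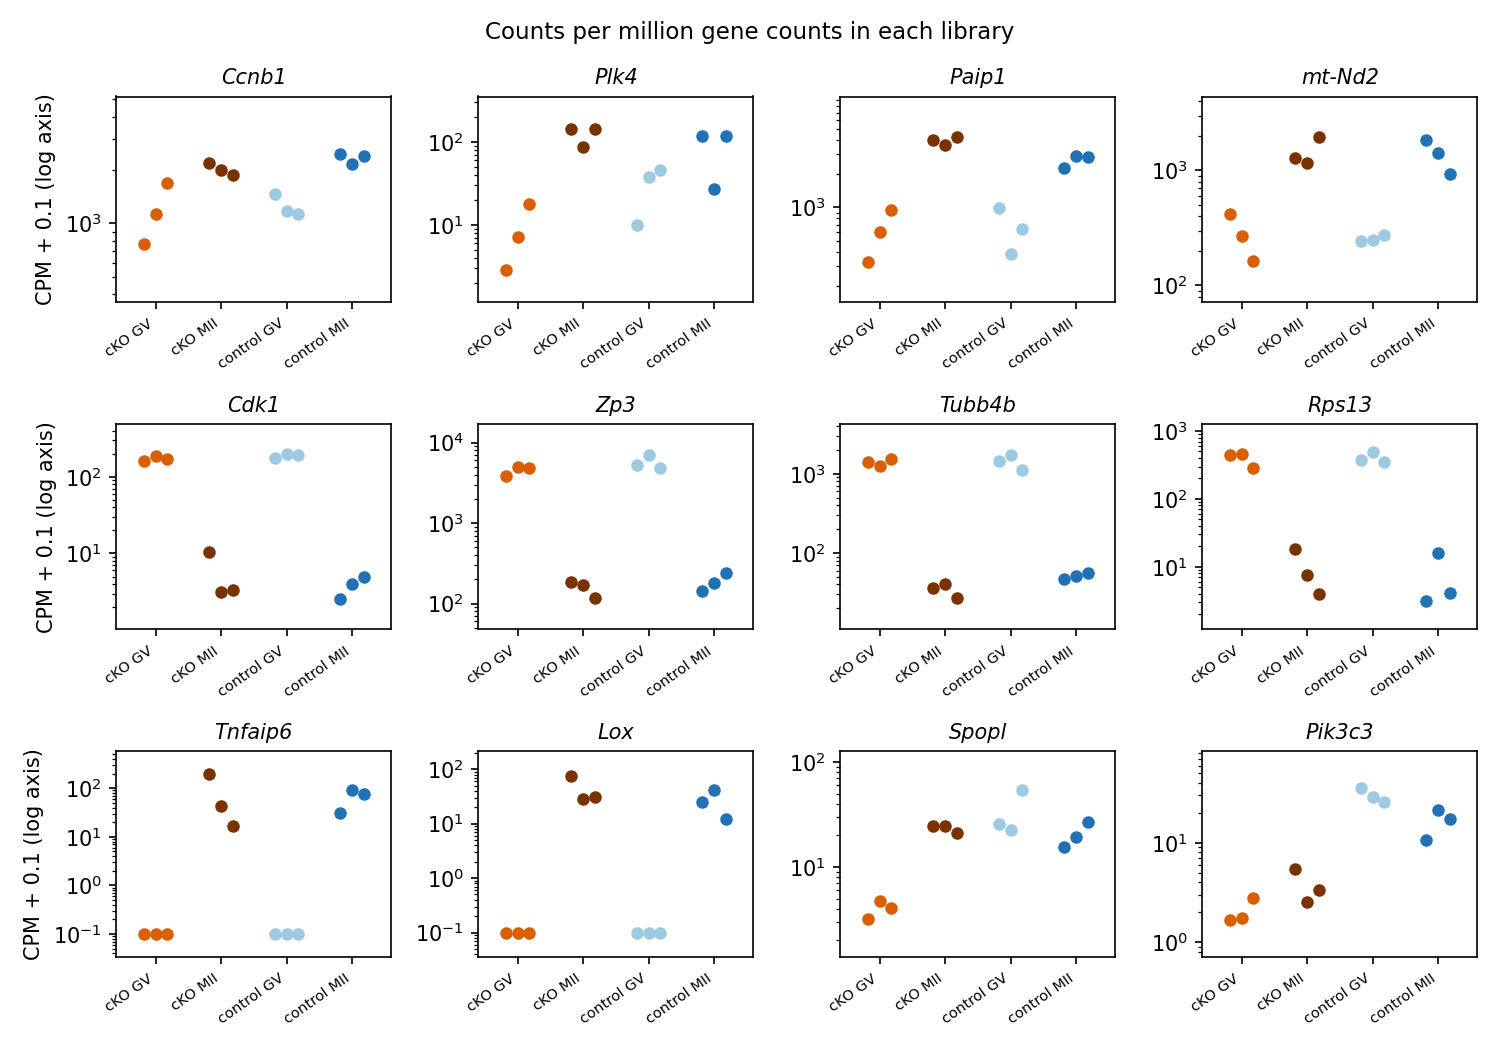
Expression of 12 genes in each library, as CPM plus 0.1 on log axes whose ranges differ between panels. Points are the 3 libraries of each group. Ccnb1, Plk4, Paip1 and mt-Nd2 are higher in every cKO MII library than in every cKO GV library, and Cdk1, Zp3, Tubb4b and Rps13 are lower. Spopl is higher at MII in the cKO and overlaps between stages in the control.

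Dormant mRNAs, known to be recruited to polysomes in maturation, mostly gained share: 15 of 21 tested genes rose and 1 fell, with a median of 1.02. Spin1, a chromatin reader gene, had 5309, 7788 and 8656 CPM at GV and 13340, 13370 and 13760 CPM at MII (log2 change 1.05, SE 0.19, edgeR adjusted p = 0.000131). Orc6, a subunit gene of the origin recognition complex, had 205, 271 and 271 CPM at GV and 660, 725 and 673 CPM at MII (log2 change 1.61, SE 0.18, edgeR adjusted p = 3.8e-07). Hprt, the purine salvage enzyme gene, had 113, 167 and 164 CPM at GV and 492, 459 and 428 CPM at MII (log2 change 1.78, SE 0.18, edgeR adjusted p = 1.06e-07). In each of these 3 genes all MII libraries were above all GV libraries. The exception was Rbpms2, which fell (-1.92). Plat, the tissue plasminogen activator gene and a classic dormant mRNA, had 2040, 2455 and 3292 CPM at GV and 1993, 1961 and 1538 CPM at MII, with no call (log2 change -0.36, edgeR adjusted p = 0.195). Scaled to ERCC, none of the 21 was higher and 18 were lower, near the 88% of all genes, with a median of -1.30 against -2.37.

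The 3′ ends of these mRNAs were read from the reference, because the element that recruits the cytoplasmic polyadenylation machinery lies close to the end. The 2 forms searched, on the transcript strand of the last 100 bases, were TTTTAT and TTTTAAT. The second can run into the polyadenylation hexamer AATAAA, as in Pan3. Each line gives 30 bases of a 3′ UTR, 5′ to 3′ on the gene's strand, around the element or, where none was found, around the hexamer AATAAA or ATTAAA; both are in capitals. The first 6 genes rose in share and hold the element in those 100 bases.
Ccnb1: tctcatttgctgTTTTAATttatacatctg
Orc6: tggttttttaaaTTTTATttcactaaatgt
Spin1: tctgtaagtaatTTTTATaattatgatgta
Plk4: caaatacaTTTTATaaAATAAAcacagtgg
Pan3: tagcagtattTTTTAATAAAgaattgcaga
Paip1: tatatataatagTTTTATtatgtacagtta
The next line is from Hprt, which rose in share without the element in its last 100 bases.
Hprt: ttaaatgcaaataAATAAAttctaaaaatt
The last 5 genes fell, and none holds the element in that window.
Cdk1: ctaatggcacggAATAAAaggattattcac
Tubb4b: acagataccaccATTAAAgcaattcatagt
Zp2: tctttaaactctAATAAAattatcctctgg
Tle6: cgagttgcgtgtAATAAAacaattgaaatg
Rps13: gtgtgcacaagcAATAAAatcactttgagt
The sequences come from the GENCODE vM21 transcripts on GRCm38, at chr13:100778776-100778805, minus strand (Ccnb1), chr8:85308005-85308034, plus strand (Orc6), chr13:51152473-51152502, plus strand (Spin1), chr3:40816840-40816869, plus strand (Plk4), chr5:147548461-147548490, plus strand (Pan3) and chr13:119457302-119457331, plus strand (Paip1). Hprt lies at chrX:53021630-53021659, plus strand. The genes that fell lie at chr10:69335156-69335185, minus strand (Cdk1), chr2:25222165-25222194, minus strand (Tubb4b), chr7:120126772-120126801, minus strand (Zp2), chr10:81590907-81590936, minus strand (Tle6) and chr7:116331512-116331541, minus strand (Rps13). These genes were picked after their changes had been seen, to show both kinds of end. Others read in the same way did not follow that split. Btg4, Cnot7, Tpx2, Dazl and Wapl rose in share without the element in the window, while Plat and Wee2 held it and had no call. The Wapl model also has no hexamer in that window, so whether it reaches the polyadenylation site cannot be told.

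Over all genes with a coding model, 10181 of 11607, the element was present in 19.6% of 3′ ends. It was in 27.9% of the genes that rose in share, in 10.3% of those that fell and in 7.88% of those that fell by at least 4-fold. In the dormant list it was in 9 of 21. With genes in 5 equal groups by GC content, 41.6% of genes with the element and 25.7% of those without rose in the middle group, while 17.3% and 31.8% fell. The gap varied with GC content. In the lowest GC group 65.0% with and 59.0% without the element rose, while 6.3% and 9.85% fell. In the highest GC group 11.1% and 4.37% rose, while 38.4% and 68.9% fell. A match is a string of letters, and genes are not independent replicates.

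GC content of the transcript varied with the direction of change. In the group with the lowest GC, 32.8% to 44.0%, 60.5% rose in share and 8.97% fell. In the group with the highest GC, 55.0% to 71.3%, 5.26% rose and 64.9% fell. Genes that rose had a median 3′ UTR of 1266.5 bases and genes that fell one of 540 bases, against 905 for all. In the group with the shortest 3′ UTRs, up to 274 bases, 51.5% fell. The gene lists differed in these features too. Median GC was 45.1% in the dormant list, and the median 3′ UTR was 79 bases in the cytosolic ribosomal protein list. Whether list changes exceed those of genes alike in GC or length was not tested. GC also varied among libraries of the same stage. The median log2 level (CPM plus 1) of the lowest GC group exceeded that of the highest by 0.19, 0.63 and 0.92 in cKO GV replicates 1 to 3, and by 2.79, 2.73 and 2.91 in cKO MII replicates 1 to 3. The gap between stages was larger than the spread within either. The part of amplification or sequencing in this pattern was not tested.

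**Figure D4:**
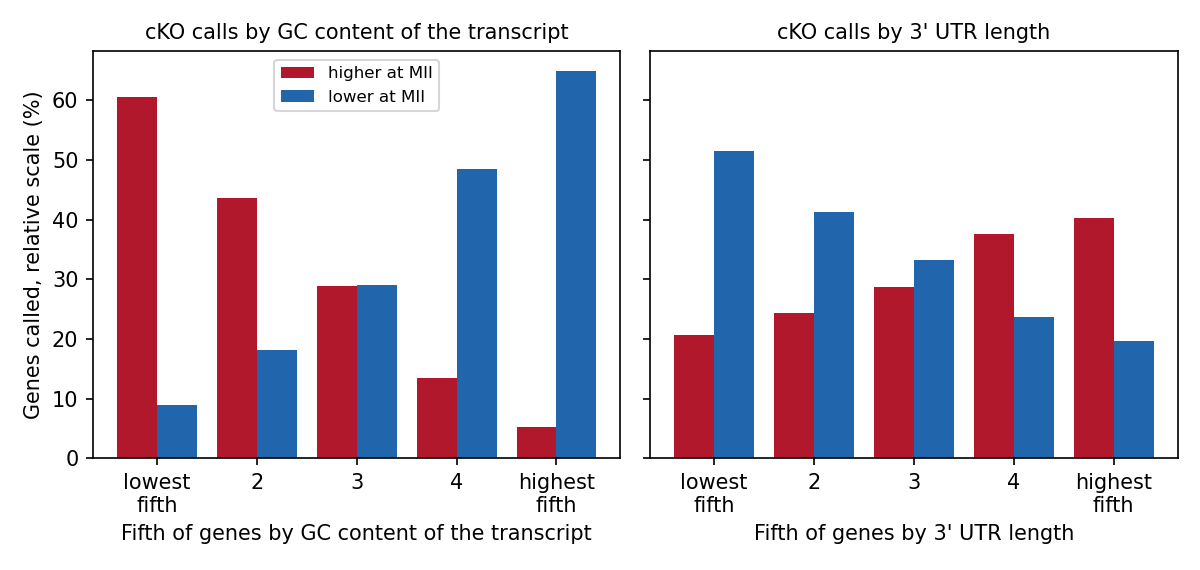
Percentage of genes called higher (red) and lower (blue) at MII in cKO oocytes, relative to gene totals, for 5 equal groups of genes ordered by GC content of the transcript (left) and by 3′ UTR length (right). From the lowest to the highest GC group the share called higher goes from 60.5% to 5.26%; from the shortest to the longest 3′ UTR it goes from 20.7% to 40.3%.

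Of 36 tested genes of the machinery that removes maternal mRNA, 19 rose in share, 6 fell and 11 had no call, against 29.5% higher and 34% lower of all genes, with a median of 0.53. Btg4, the adaptor that brings the CCR4-NOT deadenylase to maternal mRNA, had 2520, 3885 and 3584 CPM at GV and 5723, 5660 and 5633 CPM at MII (log2 change 0.92, SE 0.19, edgeR adjusted p = 0.000445). Its catalytic partner gene Cnot7 had 350, 470 and 610 CPM at GV and 1274, 1251 and 1422 CPM at MII (log2 change 1.62, SE 0.21, edgeR adjusted p = 3.33e-06), and Cnot6l rose too (1.18). Pan3, of the other cytoplasmic deadenylase, had 101, 130 and 159 CPM at GV and 548, 480 and 777 CPM at MII (log2 change 2.37, SE 0.25, edgeR adjusted p = 2.01e-07). Per spike-in, Pan3 had 13.2, 9.69 and 9.97 counts per 10000 ERCC counts at GV and 11.1, 10.6 and 11.7 at MII, so its stages overlapped on that scale (log2 change 0.03, edgeR adjusted p = 0.948). The decapping gene Dcp2 (1.22), the exonuclease gene Xrn1 (1.55) and the uridylase genes Tut4 (1.91) and Tut7 (1.53) rose in share, Tut4 with overlap between stages. The subunit genes Cnot10 (-2.14), Cnot9 (-1.36) and Cnot11 (-1.04) fell. Scaled to ERCC, 30 of the 36 were lower and none higher, near the 88% lower of all genes.

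Among 29 genes that store, repress or polyadenylate mRNA, 7 rose and 10 fell, with a median of 0.15. Ybx2, which encodes MSY2, the main packaging protein of oocyte mRNA, had 157, 104 and 66.3 CPM at GV and 5.75, 6.96 and 3.92 CPM at MII (log2 change -4.17, SE 0.36, edgeR adjusted p = 1.73e-08). Zar1l had 618, 591 and 573 CPM at GV and 31, 34.2 and 30.6 CPM at MII (log2 change -4.08, SE 0.23, edgeR adjusted p = 1.15e-10), and Zar1 fell as well (-1.98). Both encode regulators of maternal mRNA storage. Cpeb1, whose protein binds the element shown above, had 812, 746 and 722 CPM at GV and 304, 272 and 176 CPM at MII (log2 change -1.47, SE 0.19, edgeR adjusted p = 2.89e-06). Cpeb4, of the same family, had 44.8, 53.7 and 35.3 CPM at GV and 131, 120 and 143 CPM at MII (log2 change 1.70, SE 0.21, edgeR adjusted p = 1.8e-06). Cpeb1 and Cpeb4 thus moved in opposite directions, each without overlap. Dazl (1.06), a translational activator of maturation, and Tent2 (1.45), the cytoplasmic poly(A) polymerase, rose in share. The poly(A)-binding protein gene Pabpc1l fell (-3.14).

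Of 10 tested zona pellucida and egg surface genes 7 fell and 3 rose, with a median of -2.08. Zp3 (chromosome 5, 135980099 to 135988624), a structural protein of the zona, had 3798, 4969 and 4804 CPM at GV and 187, 167 and 117 CPM at MII (log2 change -4.71, SE 0.25, edgeR adjusted p = 5.69e-11). Zp1 and Zp2 fell in the same range, with log2 changes of -4.55 and -4.04. Izumo1r, the sperm receptor JUNO, had 375, 424 and 450 CPM at GV and 39.1, 41.2 and 26.4 CPM at MII (log2 change -3.41, SE 0.19, edgeR adjusted p = 1.17e-10). Of 8 genes of the subcortical maternal complex, a lattice under the plasma membrane needed for the first divisions, 6 fell and 1 rose, with a median of -1.97. Khdc3 had 180, 140 and 120 CPM at GV and 3.45, 3.33 and 2.5 CPM at MII, and Tle6 had 2369, 2084 and 2280 CPM at GV and 166, 159 and 98.4 CPM at MII. Both were far apart between stages (log2 changes -5.42 and -3.86), whereas Zbed3, of the same complex, had 10040, 12090 and 10590 CPM at GV and 9940, 12670 and 7345 CPM at MII with overlap (log2 change 0.01).

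Of 17 tested oocyte transcription factor genes 6 rose and 5 fell, near the 29.5% and 34% of all genes, with a median of 0.32. Figla, which switches on the zona genes, had 39.5, 37.5 and 34 CPM at GV and 1.92, 0 and 0.713 CPM at MII (log2 change -5.31, SE 0.49, edgeR adjusted p = 3.46e-08), and Nobox (-2.45) and Lhx8 (-2.77) fell too. Foxo3, which keeps primordial follicles dormant, rose in share (1.14), as did the homeobox genes Obox1 (0.81) and Obox5 (1.02), which have close copies and are uncertain. Of 10 growth factor genes 2 rose and 3 fell, with a median of 0.15. Fst, which encodes the activin antagonist follistatin, was among the largest rises given further on. Fgf8, a signal to the cumulus cells, had 285, 229 and 177 CPM at GV and 3.45, 3.63 and 0.713 CPM at MII (log2 change -6.31, SE 0.38, edgeR adjusted p = 2.58e-10). Gdf9 (-0.86) fell as well, and Bmp15 had 3976, 4636 and 4058 CPM at GV and 4095, 3754 and 3853 CPM at MII with overlapping stages (log2 change 0.03).

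Genes of zygotic genome activation, which is known to begin after fertilization, were mostly under the count filter: 6 of 18 passed it, none rose and Arg2, an arginase gene, fell (-4.54).

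Of 15 genes of DNA methylation and imprint protection 4 rose and 3 fell, with a median of -0.12. Dnmt3l (-1.85), the cofactor of imprint establishment, and Zfp57 (-1.62), which guards imprints, fell. The lysine demethylase gene Kdm1a had 42.3, 46.6 and 42.7 CPM at GV and 90, 99.3 and 92.3 CPM at MII and rose in share (log2 change 1.24, SE 0.18, edgeR adjusted p = 1.15e-05). Of 14 tested small RNA genes 3 rose and 7 fell, with a median of -0.39. Dicer1, the nuclease that makes small RNAs, rose (1.35), as did Ago3 (1.31), while Mael (-2.65), a piRNA pathway gene, and Ago2 (-0.66) fell.

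**Figure D5:**
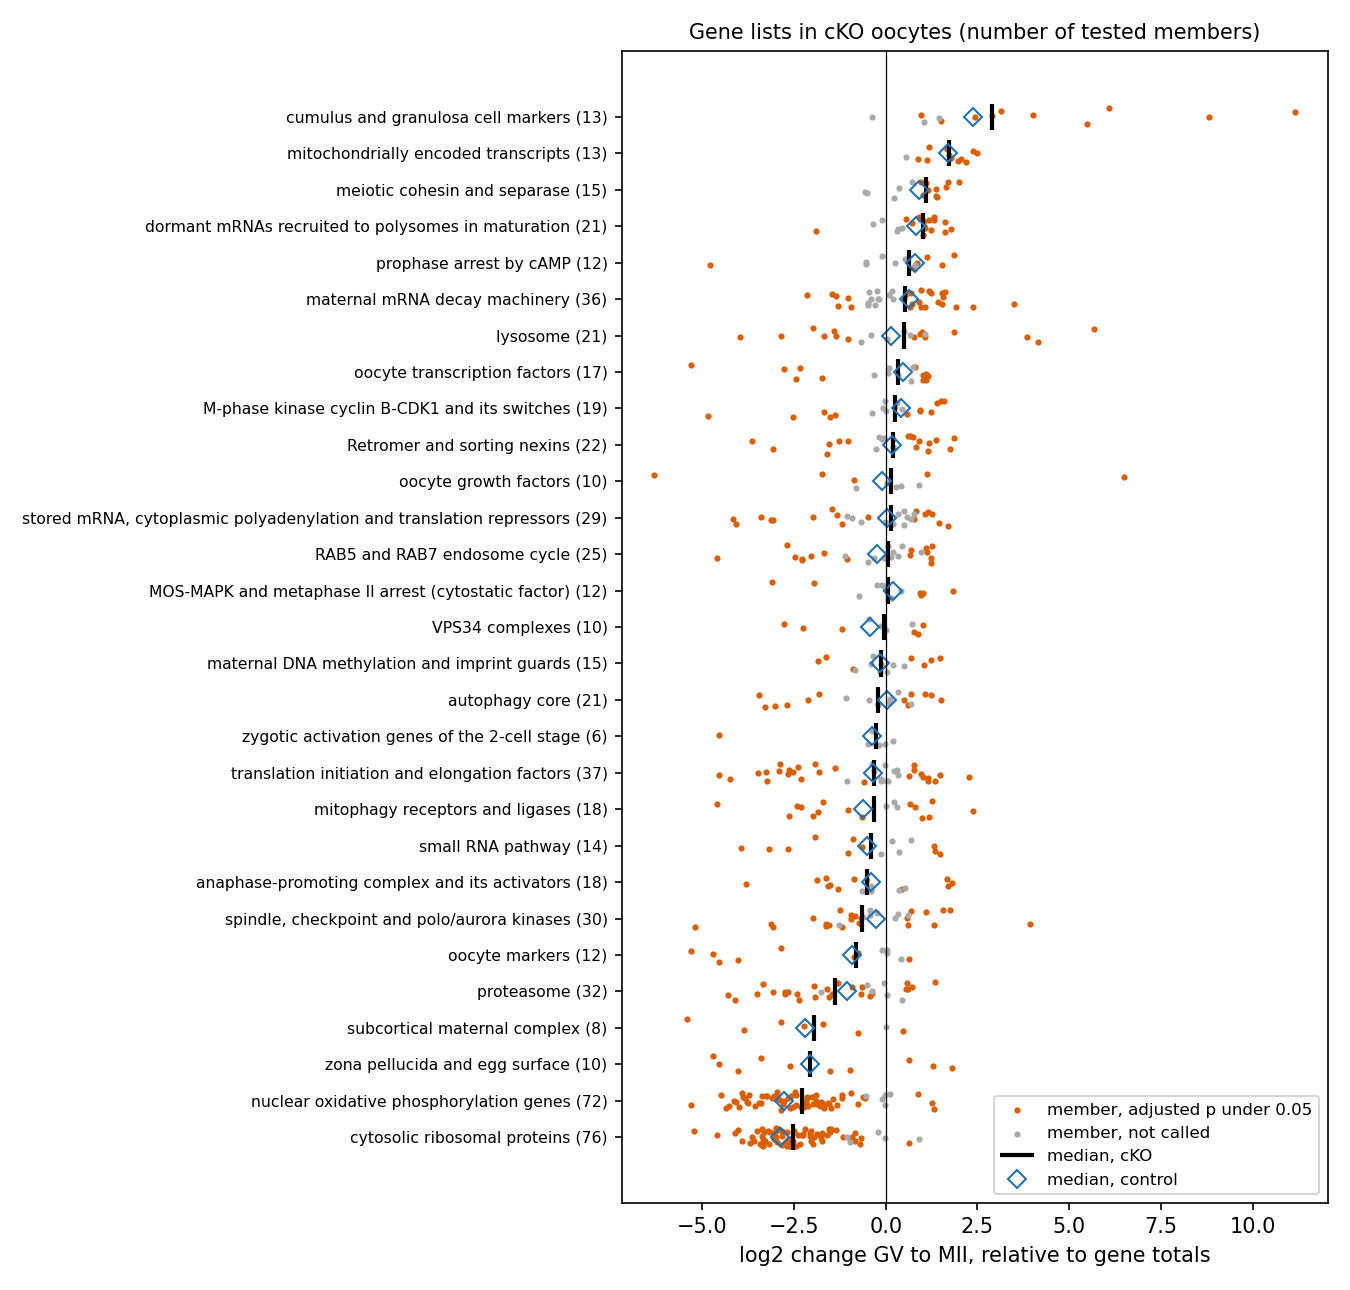
Log2 change from GV to MII, relative to gene totals, for members of each gene list with at least 6 tested genes. Orange points are members with an adjusted p under 0.05, grey points the others, black bars the cKO median and open blue diamonds the control median. The cytosolic ribosomal proteins are lowest with a median of -2.52 and the cumulus and granulosa cell markers highest with 2.88.

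The most uniform falls were in the genes of cytosolic ribosomes and of the respiratory chain. Of 76 tested cytosolic ribosomal protein genes, 70 fell and 1 rose, with a median of -2.52, against -0.04 for all genes tested. Rps13, of the small subunit, had 445, 454 and 286 CPM at GV and 18, 7.57 and 3.92 CPM at MII (log2 change -5.23, SE 0.53, edgeR adjusted p = 1.57e-06). Rpl39, of the large subunit, had 374, 274 and 182 CPM at GV and 16.1, 8.78 and 7.13 CPM at MII (log2 change -4.59, SE 0.35, edgeR adjusted p = 3.95e-09). Many of these genes have processed pseudogenes that can share reads. Scaled to ERCC, all 76 were lower, with a median of -4.94. That median was -4.25 without cKO GV replicate 1, with 75 lower, and -5.74 with median-ratio size factors over the ERCC entries. Of 72 nuclear genes of oxidative phosphorylation, 64 fell and 3 rose, with a median of -2.28. Ndufv1, a complex I subunit gene, had 86.8, 84.3 and 127 CPM at GV and 4.98, 0.605 and 1.43 CPM at MII (log2 change -5.32, SE 0.39, edgeR adjusted p = 2.06e-09).

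The 13 transcripts encoded in mitochondrial DNA went the other way. Of these, 12 rose in share and none fell, with a median of 1.72 (-0.80 when scaled to ERCC), while mt-Co3 had no call (log2 change 0.54). mt-Nd2, a complex I subunit, had 422, 270 and 163 CPM at GV and 1274, 1151 and 1941 CPM at MII (log2 change 2.48, SE 0.35, edgeR adjusted p = 1.81e-05). mt-Cytb, of complex III, had 1520, 1382 and 846 CPM at GV and 5553, 4221 and 8021 CPM at MII (log2 change 2.39, SE 0.31, edgeR adjusted p = 4.29e-06). Both were higher in every MII library. Scaled to ERCC, 6 of 13 were lower and none higher. Without cKO GV replicate 1 the median on that scale was 0.06, with 1 lower. On that scale mt-Nd2 had 55.2, 20.1 and 10.2 counts per 10000 ERCC counts at GV and 25.9, 25.4 and 29.3 at MII, with overlap (log2 change -0.08, edgeR adjusted p = 0.837).

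Of 32 proteasome genes 21 fell and 5 rose, with a median of -1.39. Psmb7, of the catalytic core, had 112, 139 and 177 CPM at GV and 11.1, 4.54 and 4.28 CPM at MII (log2 change -4.30, SE 0.30, edgeR adjusted p = 1.1e-09), and Psmd1, of the regulatory particle, rose (1.34). Of 37 translation factor genes 16 fell and 10 rose, with a median of -0.31. Eef1d (-4.54) and the initiation factor subunit genes Eif3h (-3.49) and Eif3g (-3.26) were among the falls. Eif4a2 (1.47) and Eif5 (1.15) were among the rises.

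In the lists for the deleted kinase and its pathways calls went both ways, as they did over all genes tested (29.5% higher and 34% lower). Of 10 tested genes of the VPS34 complexes 3 rose and 3 fell, with a median of -0.06, against -0.04 for all genes. Pik3r4, which encodes VPS15, the kinase's constant partner, had 170, 144 and 116 CPM at GV and 52.5, 50.5 and 68.4 CPM at MII (log2 change -1.19, SE 0.23, edgeR adjusted p = 0.000204). Becn1, of both complexes, had 19.9, 20.4 and 51.6 CPM at GV and 54.8, 47.8 and 33.5 CPM at MII, with overlap (log2 change 0.73, edgeR adjusted p = 0.0724). Atg14, of the autophagy complex, had 62.2, 53.2 and 66.3 CPM at GV and 79.3, 94.1 and 107 CPM at MII and rose in share (log2 change 0.77, SE 0.20, edgeR adjusted p = 0.00238). Uvrag, of the endosomal complex, had no call. Of 21 tested autophagy core genes 6 rose and 6 fell, with a median of -0.22. Map1lc3a, an LC3 gene, had 104, 69.7 and 74 CPM at GV and 11.1, 6.05 and 3.56 CPM at MII (log2 change -3.47, SE 0.31, edgeR adjusted p = 3.07e-08). Atg101 (-3.28) and Wipi2 (-3.02), whose product binds the lipid made by VPS34, fell, and Rb1cc1 (1.23), of the ULK initiation complex, rose.

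Of 18 mitophagy genes 9 fell and 6 rose, with a median of -0.32. Bnip3, a mitophagy receptor gene, had 12.1, 16.8 and 29.7 CPM at GV and 114, 87.2 and 70.2 CPM at MII (log2 change 2.37, SE 0.29, edgeR adjusted p = 1.78e-06). Its relative Bnip3l had 156, 210 and 272 CPM at GV and 135, 118 and 113 CPM at MII (log2 change -0.65, SE 0.20, edgeR adjusted p = 0.00768). The receptors were thus separated between stages in opposite directions. The mitochondrial ligase gene Mul1 fell (-4.61). Of 25 genes of the RAB5 and RAB7 cycle 7 rose and 8 fell, with a median of 0.07. Mon1a and Ccz1 encode the partners that activate RAB7. Mon1a had 47, 44.4 and 40.7 CPM at GV and 2.68, 1.21 and 1.07 CPM at MII (log2 change -4.60, SE 0.35, edgeR adjusted p = 3.84e-09), while Ccz1 had 36.1, 30.9 and 23 CPM at GV and 67.4, 65.4 and 62.4 CPM at MII (log2 change 1.25, SE 0.23, edgeR adjusted p = 0.000156). Mon1b, the paralog of Mon1a, had no call (0.07), nor did Rab7 (-0.32).

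Of 22 Retromer and sorting nexin genes 10 rose and 6 fell, with a median of 0.20. In the Retromer core, Vps35 had 83, 127 and 177 CPM at GV and 198, 196 and 185 CPM at MII and rose in share (log2 change 0.74, SE 0.21, edgeR adjusted p = 0.00436), Vps26a was not called (0.19) and Vps29 had 68.4, 104 and 131 CPM at GV and 31, 31.2 and 31 CPM at MII and fell (log2 change -1.54, SE 0.22, edgeR adjusted p = 7.19e-06). Of 21 tested lysosome genes 8 rose and 7 fell, with a median of 0.49. The lysosomal membrane genes Lamp1 (-1.02) and Lamp2 (1.87) moved in opposite directions. Atp6v0c, of the proton pump, fell (-3.97). Ctsl, a protease gene also expressed in cumulus cells, had 6.84, 9.64 and 14.3 CPM at GV and 276, 102 and 29.9 CPM at MII (log2 change 3.85, SE 0.68, edgeR adjusted p = 0.000385), highest in cKO MII replicate 1. Scaled to ERCC, Ctsl, Cd63 and Manba were called higher, and 1 of the 3 without that library.

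By the conditions used for naming genes (called, changed by at least 1 on the log2 scale, not overlapping, and at 20 CPM or more in either stage), 1958 genes were lower and 1456 higher. The 12 largest falls ran from -5.71 to -7.24 on the log2 scale. Upp1, uridine phosphorylase (chromosome 11, 9118103 to 9136170), had 281, 332 and 386 CPM at GV and 1.53, 1.51 and 2.85 CPM at MII (log2 change -7.24, SE 0.31, edgeR adjusted p = 1.02e-11). Ckb, brain-type creatine kinase, had 351, 278 and 332 CPM at GV and 6.13, 3.33 and 2.14 CPM at MII (log2 change -6.25, SE 0.34, edgeR adjusted p = 7.18e-11). Cpsf4l, an oocyte-abundant gene related to a 3′ end processing factor, had 1194, 1289 and 1460 CPM at GV and 18.8, 21.5 and 27.4 CPM at MII (log2 change -5.71, SE 0.23, edgeR adjusted p = 9.95e-12). In all 3 the MII libraries kept a small remnant. The others were Fgf8, Med29, Pop5, Fam187b and, with 3 or fewer counts over the 3 MII libraries, Mlycd, Iqcf1, Sult5a1, Chadl and Ggt1. Mlycd, malonyl-CoA decarboxylase, fell from 411 to 3 counts over the libraries of a stage, a 121-fold lower share (95% exact counting interval 41.2 to 591). Among genes with at least 20 CPM at GV, 194 fell by at least 16-fold and 40 by at least 32-fold.

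The 12 largest rises began from almost nothing. They were Tnfaip6, Spp1, Lox, Ier3, Nupr1, Timp1, Akr1c18, Tmsb4x, Piezo2, Nts, Fst and Skil. Tnfaip6, a protein of the expanding cumulus matrix, was at 0 in all GV libraries and at 194, 42.1 and 16.8 CPM at MII, at least 261-fold higher (against 3 counts over the GV libraries). Spp1, osteopontin, had 0.933, 0.551 and 1 CPM at GV and 2292, 869 and 626 CPM at MII (log2 change 10.65, SE 0.88, edgeR adjusted p = 6.02e-07). Lox, lysyl oxidase, was at 0 at GV and at 75.9, 27.9 and 31.4 CPM at MII, at least 142-fold higher. Timp1, a metalloproteinase inhibitor, had 1 count at GV and 432 at MII, a 488-fold higher share (95% exact counting interval 87.1 to 19300). In all 12 the highest MII value was in cKO MII replicate 1, as it was in 268 of the 389 genes higher by at least 4-fold. Without that library all 12 were still called, but their fitted log2 changes ran from 4.87 to 9.94, against 6.47 to 11.17 with it; where GV is at or near 0 these fitted values depend on the prior count and are no bounds. Spp1 had 9.94 on the log2 scale without it.

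The 13 tested cumulus and granulosa cell markers moved with these genes: 10 rose and none fell, with a median of 2.88, also with genes at 0 set to their bound. Scaled to ERCC, 5 were higher and 2 lower, with a median of 0.64 that was -0.11 with median-ratio size factors over the ERCC entries and -0.46 without cKO MII replicate 1. Relative to gene totals, the median was 1.95 without that library. A marker at 0 in the cKO GV libraries, such as Tnfaip6, could not fall, and markers low at both stages were removed by the count filter. The balance of rises and falls among the 13 was thus partly set by the filter. Serpine2 made up most of the summed level. The other 21 of the 22 markers summed to 82.1, 75.8 and 105 CPM in cKO GV replicates 1 to 3, and to 858, 261 and 168 CPM in cKO MII replicates 1 to 3. Per 10000 ERCC counts these sums were 10.8, 5.63 and 6.62 at GV and 17.4, 5.77 and 2.54 at MII, so the stages overlapped on that scale. Of the 22, 7 to 9 were at 0 in each GV library and 5 to 8 in each MII library. Pgr, Areg and Ereg were at 0 in all 6, and Fshr, Foxl2 and Amh stayed at or under 1.67 CPM. In control oocytes the 21 markers without Serpine2 summed to 101 to 125 CPM at GV and 219 to 381 CPM at MII. The next rises on the ERCC scale, Cald1 (4.02), Vcan (3.95), Neat1 (3.92), Ephx2 (3.83), Manba (3.48) and Rgcc (3.44), include Vcan, which is on the marker list. The part of RNA from follicle cells in the rises of genes absent at GV was not tested.

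Rises of genes already present at GV were smaller. Among genes with at least 20 CPM in cKO GV oocytes, a condition added after the cumulus genes had been seen, 44 rose by at least 4-fold in share. Paip1, which encodes a partner of the poly(A)-binding protein, had 328, 600 and 946 CPM at GV and 3945, 3564 and 4274 CPM at MII (log2 change 2.82, SE 0.32, edgeR adjusted p = 6.94e-07). Per spike-in, Paip1 had 43, 44.6 and 59.5 counts per 10000 ERCC counts at GV and 80, 78.7 and 64.5 at MII, with no overlap but no call (log2 change 0.60, edgeR adjusted p = 0.128). Wtap, a subunit gene of the RNA methylation complex, had 187, 552 and 554 CPM at GV and 2117, 1946 and 3161 CPM at MII (log2 change 2.65, SE 0.36, edgeR adjusted p = 1.14e-05). Ptp4a1, a phosphatase gene, had 13.1, 46.3 and 122 CPM at GV and 346, 340 and 255 CPM at MII (log2 change 2.55, SE 0.54, edgeR adjusted p = 0.00134). The GV libraries of these 3 genes differed widely and were lowest in replicate 1, yet all lay below the MII libraries. Clasp2 (2.42), a microtubule-binding protein gene, Ppp1cb (2.38), a phosphatase subunit gene, and Actr2 (2.35), of the actin-nucleating ARP2/3 complex, rose with log2 changes on the ERCC scale of 0.08, -0.05 and 0.03. None of these genes was called on that scale.

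The change in the cKO was set beside that of control oocytes, which share no library with it. In the control, 3490 genes (30.1%) were higher and 3928 (33.8%) lower relative to gene totals. Of the cKO rises 83.8% were also called in the control, and 82.2% of the control rises in the cKO. For falls the shares were 88.5% and 89.0%. Across 11607 genes the changes correlated at r = 0.924, a description, since genes are not replicates and all libraries share the method. Scaled to ERCC, 65 genes (0.56%) were higher and 8141 (70.1%) lower in the control, with a median of -1.72. The median difference, cKO minus control, was -0.61 on the ERCC scale (-0.27 without cKO GV replicate 1) and -0.01 relative to gene totals.

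The difference itself was tested as an interaction. Relative to gene totals 1 gene (0.00862%) passed, and 608 (5.24%) had an unadjusted p under 0.05. That gene was Spopl (chromosome 2, 23506220 to 23572106), whose product brings substrates to the cullin-3 ubiquitin ligase. In the cKO it had 3.11, 4.68 and 4 CPM at GV and 24.5, 24.5 and 21 CPM at MII, with no overlap. In the control it had 25.7, 22.4 and 54.7 CPM at GV and 15.3, 19 and 26.9 CPM at MII, with overlap. The log2 change was 2.69 in the cKO and -0.63 in the control (log2 difference 3.32, SE 0.48, edgeR adjusted p = 0.0168). The cKO MII libraries lay within the range of the control, and the cKO GV libraries below it. The call was lost without cKO GV replicate 1 or 2, cKO MII replicate 2 or 3 or control MII replicate 2, with log2 differences of 3.21 to 3.47 there.

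Scaled to ERCC, 3 genes (0.0258%) differed. By the same edgeR test 809 genes (6.97%) had an unadjusted p under 0.05. The difference, cKO minus control, was below 0 in 761 of them and above 0 in 48. Over all genes tested the median difference on this scale was -0.61, so the sign follows the general offset between genotypes. The number of genes with an unadjusted p under 0.05 in this test was 222 with median-ratio size factors over the ERCC entries. It was 172 with DESeq2's own test, and 306 to 1660 when a library was left out of the edgeR fit, lowest without cKO GV replicate 1. Manba, the lysosomal beta-mannosidase gene, had 0.933, 0.276 and 1 CPM at GV and 39.9, 33.6 and 32.4 CPM at MII in the cKO and 51.1, 41.4 and 48.8 CPM at GV and 0.818, 17.2 and 44 CPM at MII in the control (log2 difference 6.15, SE 0.82, edgeR adjusted p = 1.22e-09 on the ERCC scale). All cKO GV libraries were at or under 1 CPM, and the control MII libraries ranged from under 1 to 44 CPM. The call was lost with DESeq2 and without control GV replicate 1 or 3. Relative to gene totals the difference missed the threshold (log2 difference 6.77, SE 1.24, edgeR adjusted p = 0.355). Prr18 had 28, 14.9 and 9.33 CPM in cKO GV libraries and 0 in all cKO MII libraries, a share at least 50.8-fold lower. The control had 0, 0.264 and 1.49 CPM at GV and 6, 3.32 and 0 CPM at MII. This call and that of Speer4a were lost with DESeq2 and without control GV replicate 1, and that of Speer4a also without control GV replicate 2. With median-ratio size factors over the ERCC entries only 1 gene was called lower, against 2 in the main fit, so the calls of Prr18 and Speer4a did not both hold there. Speer4a, a member of a multicopy family and so uncertain, had 7.15, 9.64 and 12.3 CPM at GV and 12.3, 6.66 and 13.9 CPM at MII in the cKO and 0, 0 and 1.7 CPM at GV and 22.4, 5.74 and 11.7 CPM at MII in the control (log2 difference -4.53, SE 0.88, edgeR adjusted p = 0.00114 on the ERCC scale).

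A smaller shift between genotypes followed GC content. The median of the difference of changes, cKO minus control, went from 0.12 in the lowest GC group to -0.28 in the highest, relative to gene totals. At MII the gap in level between the lowest and the highest GC group was 2.73 to 2.91 in the cKO and 2.34 to 2.63 in the control, without overlap. At GV it was 0.19 to 0.92 and 0.32 to 0.92. This trend with GC content was not tested, and 3 against 3 libraries cannot go below an exact p of 0.1.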

How the data were processed

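Oocyte mRNA was sequenced by Smart-seq2. The deposited table holds raw read counts per gene, which the authors made with fastp, HISAT2 and featureCounts on mm10, per the submitters' processing notes. For versions, annotation release and strand setting, the sources used here give nothing. The table has 55291 gene entries and 92 ERCC entries. The 12 columns for GV and MII were matched to labels by age, stage and replicate number, with the letter T read as the Cre-positive arm. The 6 columns that matched no sample label were not used, and the 2-cell samples were not analysed here.

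Counts were fitted with edgeR 4.0.16 (R 4.3.3) by its quasi-likelihood test over 12 libraries in 4 groups, which share 1 estimate of the spread, after filterByExpr left 11607 genes. Library sizes were gene totals with TMM factors, or summed ERCC counts with no further factor. P-values were adjusted by Benjamini-Hochberg over all genes tested, with a threshold of 0.05. CPM was computed from gene totals. DESeq2 1.42.0, other scalings, no filter, the replicate block and leaving out each library were alternatives. The fits were also run on simulated counts in which few genes changed, equally often up and down. These data differ from that setting, so that run does not show how the scalings behave here. Exact permutation tests used scipy 1.17.1, and tables and figures used Python 3.11.15, numpy 2.4.6, pandas 2.3.3 and matplotlib 3.10.9.

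Up to 12 rises and 12 falls with the largest change were named among genes called, at least 2-fold changed, at 20 CPM or more in the higher stage and not overlapping. On the ERCC scale 6 further rises were named. In each list up to 4 members were named by size of change among those at 20 CPM or more, and predicted genes were not named. Other genes named in the text were chosen after their values had been seen. The values of 2 list members are not reported here. The lists and members were chosen with earlier results of these data known. Replicates are described as biological, but no label ties a library to an animal, so p-values measure the spread between libraries. Without molecular identifiers, the intervals given for low counts cover counting error only.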

Additional observations from a re-analysis of the deposited data

Results flagged for a closer look

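The change from GV to MII differed between genotypes in 4 genes by edgeR's interaction test. Relative to gene totals, this was Spopl, with a log2 difference of 3.32 (cKO minus control). On the ERCC scale the log2 differences were 6.15 for Manba, -10.96 for Prr18 and -4.53 for Speer4a. The Prr18 value is a fitted one from a gene at 0 in all cKO MII libraries and is no bound.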

How the results depend on the processing

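The count of genes called relative to gene totals stayed within 1.5 times in all alternatives, and was 6671 to 7248 when a cKO library was left out (2956 to 3325 higher, 3691 to 3923 lower). On the ERCC scale it was 9562 to 10466 (9452 to 10384 lower). In control oocytes it was 6789 to 7122 and, on the ERCC scale, 6939 to 8917. The 93 genes called higher on the ERCC scale were 60 with only the cKO libraries in the fit and 50 with DESeq2, and 48 to 124 when a library was left out, lowest without cKO MII replicate 1. The 1 gene of the difference relative to gene totals was 5 with DESeq2, 18 with no filter on low counts and 0 to 3 when a library was left out. The 3 genes on the ERCC scale were 0 with DESeq2, 2 with median-ratio ERCC size factors and 0 to 7 when a library was left out. The cause of these changes was not tested, beyond the loss of a library. The log2 ratio of gene to ERCC counts was -2.38 to -1.85 when a library was left out. Of 1831 values of 141 named genes under alternatives relative to gene totals, 1821 kept direction and call, 9 lost the call, all for Pik3c3, and 1 gained it. On the ERCC scale 1489 of 1550 kept both, 29 lost the call and 32 gained it. Most of these genes were named for large changes in the main fit, so these counts do not stand for genes in general. With the replicate block 7233 genes were called relative to gene totals (3356 higher, 3877 lower), 9976 on the ERCC scale (78 higher, 9898 lower), and 1 and 3 for the differences. Deviations of same-numbered GV and MII libraries from their group means were not positively correlated (r = -0.025, -0.067 and -0.124). With means of 3 libraries this cannot decide whether the numbers pair them. Genes with few counts at GV limit the precision of the largest rises.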

Other observations

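Other features of the mRNA also differed with the direction of change. Genes that rose in share had a median coding length of 1593 bases and genes that fell one of 1125, against 1395 for all 10181 genes with a coding model. Their median numbers of exons were 11, 8 and 9. A polyadenylation hexamer lay in the last 40 bases of 78.3% of the genes that rose and 69.5% of those that fell. Among genes with at least 20 CPM at GV, Bhlhe41, a circadian repressor gene, had 17.7, 22.9 and 49 CPM at GV and 153, 136 and 202 CPM at MII (log2 change 2.63, SE 0.36, edgeR adjusted p = 8.46e-06), and every MII library lay above every GV library.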
